A study of Homo sapiens with 12 samples.

Results

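The 4 libraries described here, of 12 in the study, come from MKL-1 cells kept for 6 days in 3 µM EPZ011989 with 1% ethanol: 2 libraries made with an antibody against H3K27me3 and 2 made with control IgG. They were taken by these labels, and their deposited lists hold 421 of the 176444 peaks of the study, 366 and 25 for H3K27me3 and 16 and 14 for IgG. The other 8 libraries, used only for comparison, are the treated H3K4me3 libraries and the H3K27me3, H3K4me3 and IgG libraries of vehicle cells, which received 1% ethanol alone. MKL-1 is 1 established line of Merkel cell carcinoma, a neuroendocrine skin cancer, and is positive for Merkel cell polyomavirus, so the replicates are repeated treatments of 1 line and not different tumours. Cells of each treatment were divided between the 3 antibodies, and same-numbered libraries are therefore treated below as coming from 1 culture.

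H3K27me3 is written by EZH2, the catalytic subunit of Polycomb repressive complex 2 (PRC2), and marks genes kept silent, among them clusters of HOX genes and other developmental regulators, often over broad domains. EPZ011989 blocks the methyltransferase activity of EZH2. In CUT&RUN an antibody tethers a nuclease to chromatin, and control IgG, which recognises no chromatin mark, shows where fragments are released without a specific target, including in mitochondrial DNA. The question asked of these 4 libraries was whether the H3K27me3 peaks that remained with EPZ011989 exceeded that background.

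The number of H3K27me3 peaks exceeded the number of IgG peaks in both pairs, but by very different amounts. On chromosomes 1 to 22 and X, the H3K27me3 lists held 363 and 22 peaks and the IgG lists 12 and 9. H3K27me3 replicate 1 stood far above the other 3 libraries, and replicate 2 stood close to the IgG libraries. The means were 192.5 ± 241 and 10.5 ± 2.12 peaks (SD, n = 2 each), a ratio of 18.3 or 4.20 on the log2 scale, and an exact two-sided permutation test gave p = 0.333, the smallest that the 6 labellings allow. Within the pairs, H3K27me3 exceeded IgG 30.2-fold in replicate 1 and 2.44-fold in replicate 2. Without H3K27me3 replicate 1 the log2 ratio was 1.07.

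The covered length followed the same order. H3K27me3 peaks covered 217493 and 7201 bp, and IgG peaks 3789 and 2924 bp. The ratio of the means was 33.5 (log2 5.06, exact permutation p = 0.333), and it was 57.4 within the first pair and 2.46 within the second. Without H3K27me3 replicate 1 the log2 ratio was 1.10.

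The libraries also differed in background. Each list's fold and p-value were used to solve for the library's background in fragments per base, which serves as a stand-in for its unknown depth. It was 0.373 and 0.148 in the H3K27me3 libraries and 0.221 and 0.0716 in the IgG libraries. In both pairs the H3K27me3 library had the higher background, 1.69-fold in replicate 1 and 2.06-fold in replicate 2. The part of the background in the number of peaks was not tested.

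Replicate 1 was also the only library of the 4 with wide peaks. Its peaks measured 370 to 4492 bp with a median of 448 bp, and 41 of them (11.3%) were 1000 bp or wider. Replicate 2 peaks measured 276 to 464 bp (median 320.5 bp), IgG replicate 1 peaks 282 to 396 bp (297.5 bp) and IgG replicate 2 peaks 281 to 369 bp (322 bp). No peak of these 3 libraries reached 1000 bp, and the median of H3K27me3 replicate 2 lay between the IgG medians. The median widths differed by 0.31 on the log2 scale (exact permutation p = 0.667). The authors deposited broad MACS2 peaks for H3K27me3 and narrow ones for IgG, so caller mode and antibody cannot be told apart in the widths.

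Most of these peaks were faint. The fold is a ratio of fragment pileup to local background after 1 is added to both. With backgrounds this low it lies well below the plain ratio. Its lowest, median and highest values were 4.37, 4.49 and 6.34 in H3K27me3 replicate 1 and 4.36, 4.36 and 49.8 in replicate 2. In the IgG libraries they were 4.92, 5.33 and 8.19, and 4.67, 5.60 and 17.7. The most frequent fold, held by 139 of 363 peaks in H3K27me3 replicate 1, 14 of 22 in replicate 2, 6 of 12 in IgG replicate 1 and 4 of 9 in IgG replicate 2, stood for 5, 4, 5 and 4 fragments. A broad peak carries its mean and a narrow peak its summit value, so the folds of the antibodies are given side by side and not tested. The highest estimated pileup was 7.70 fragments in H3K27me3 replicate 1 and 9 in IgG replicate 1, and 56.2 in H3K27me3 replicate 2 and 18 in IgG replicate 2.

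**Figure D1:**
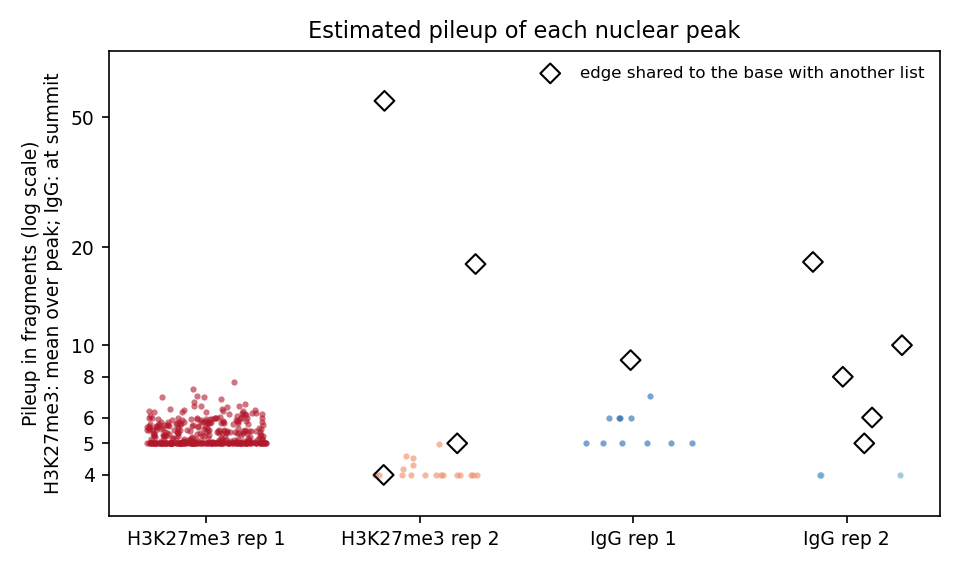
Estimated pileup in fragments (log axis) of each peak on chromosomes 1 to 22 and X, by EPZ011989 library, with 1 point per peak and open diamonds for peaks whose start or end is shared to the base with a peak of another list; broad H3K27me3 peaks give the mean over the peak and narrow IgG peaks the summit. Replicate 1 of H3K27me3 stays between 5 and 7.70 fragments with no diamond, and the highest peaks of replicate 2 and of both IgG libraries are diamonds.

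The H3K27me3 lists reached to weaker peaks than the IgG lists. The lowest −log10 q was 1.34 and 1.17 for H3K27me3 and 1.72 and 2.61 for IgG. At a −log10 q of 2 or more, 45 and 4 H3K27me3 peaks and 6 and 9 IgG peaks were left, a log2 ratio of 1.71. At the highest of the 4 lists' own lowest values, a −log10 q of 2.61 set by IgG replicate 2, which by construction loses no peak, the numbers were 10 and 2 against 6 and 9, and the log2 ratio was −0.32. At a common −log10 p of 7.83, set in the same way, they were 6 and 4 against 6 and 9, with a log2 ratio of −0.58. The direction of the difference in mean number thus turned at both common thresholds, which were chosen after seeing the data. The pairs differed. In replicate 2, H3K27me3 already had fewer peaks than IgG at a −log10 q of 2 (4 against 9). In replicate 1, H3K27me3 had more at the common −log10 q (10 against 6) and as many at the common −log10 p (6 each). A q also depends on the other peaks of its list, and a broad peak's mean p lies below that of its summit.

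**Figure D2:**
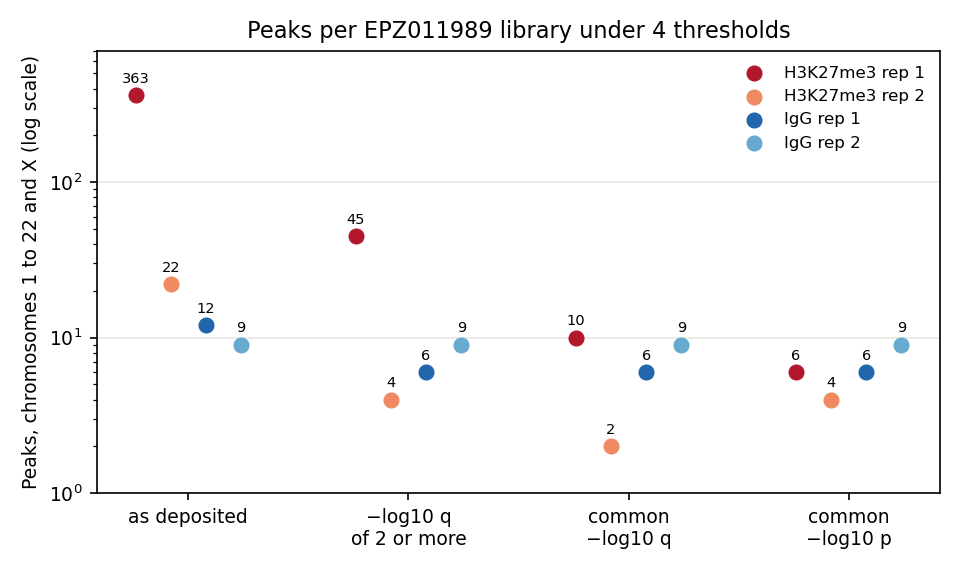
Peaks on chromosomes 1 to 22 and X (log axis) in each EPZ011989 library, as deposited and at 3 stricter thresholds, with 1 point per library and its count above it. H3K27me3 replicate 1 falls from 363 peaks to 45, 10 and 6; both common thresholds are the lowest values of IgG replicate 2, which therefore keeps its 9 peaks by construction.

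No nuclear peak was shared between the H3K27me3 replicates. Of the 363 peaks of replicate 1, 0 overlapped a replicate 2 peak by 1 bp or more, and for the 22 peaks of replicate 2 the count was also 0. Taking a count of 0 to allow up to 3, the shares could reach 0.826% and 13.6%. None of the 363 overlapped a peak of either treated IgG library or of either vehicle IgG library. The treated IgG lists shared no peak with each other either (0 of 12 and 0 of 9). H3K27me3 replicate 2 covered 7201 bp and the treated and vehicle IgG lists 1138 to 12955 bp, of a span of 3024 Mb. Lists this short meet few positions, so the counts of 0 are not read as a result about replicate 1. H3K27me3 replicate 2 shared 2 peaks with treated IgG replicate 2 (9.09% of the H3K27me3 list and 22.2% of the IgG list), none with treated IgG replicate 1, and 3 and 2 with the vehicle IgG libraries.

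The strongest replicate 2 peaks sat at the very positions of IgG peaks. In this list 4 of 22 peaks (18.2%) had a start or end identical to the base with a peak of another of the study's lists, against 0 of 363 in replicate 1, 1 of 12 (8.33%) in IgG replicate 1 and 5 of 9 (55.6%) in IgG replicate 2. Shares in the larger lists of the study were 0.821% and 0.799% for vehicle H3K27me3 and 5.07% to 5.94% for H3K4me3. Of the 4 replicate 2 peaks with a −log10 q of 2 or more, 3 were of this kind.

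The highest lay inside STEAP3, which encodes an endosomal metalloreductase, at chr2:119245581-119245856, in the gene body and away from the start. Its fold was 49.8 in H3K27me3 replicate 2, 1534 and 57.0 in the vehicle IgG libraries, 13.2 in vehicle H3K27me3 replicate 1, and 45.8 and 22.1 in vehicle H3K4me3. Neither treated IgG library nor H3K27me3 replicate 1 listed it. The next lay at PHF1, an accessory subunit of PRC2, at chr6:33413253-33413531, 2239 bp from the nearest start site, and had a fold of 16.3 in H3K27me3 replicate 2. The identical interval was listed in vehicle IgG replicate 2 at 14.05, in vehicle H3K27me3 replicate 1 at 3.29 and in vehicle H3K4me3 at 41.3 and 3.77. Both sites were therefore also present in IgG libraries, though in those of vehicle cells.

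Both peaks shared with treated IgG lay on chromosome 8. One was in STMN2, a neuronal regulator of microtubules, at chr8:79653930-79654251, with a fold of 5.23 in H3K27me3 replicate 2 and 6.53 in IgG replicate 2. The other, at chr8:134942231-134942581, lay 109892 bp from the nearest gene start, that of ZFAT, with 4.36 and 17.7. The remaining treated IgG peaks with a shared edge were near LRRC38 in replicate 1 (fold 8.19, and 39.9 in vehicle IgG replicate 1) and in PADI6, near SOX14 and near CDH6 in replicate 2 (8.40, 10.3 and 5.60).

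The largest cluster of replicate 1 peaks lay over HOXB, the HOX genes of chromosome 17 that help to pattern the body axis. In vehicle cells the region chr17:48127992-48826185, 698 kb long, was almost entirely covered by H3K27me3 peaks, 696 and 698 kb in the replicates. Within it treated replicate 1 kept 23 peaks that covered 30.2 kb, with a median width of 1000 bp and folds of 4.37 to 6.34. Treated replicate 2, both treated IgG libraries and both vehicle IgG libraries had 0. The region held 12 of the 41 wide peaks and 13.9% of the covered bases of replicate 1, and 6 of its 45 peaks with a −log10 q of 2 or more. Most of the list lay elsewhere: without the region replicate 1 still had 340 peaks over 187289 bp, and the log2 ratios of H3K27me3 to IgG were 4.11 for number and 4.86 for length.

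The densest stretch, chr17:48545409-48644840, held 12 of these peaks in 99.4 kb, from just beyond HOXB2 to beyond HOXB9. The widest peak of the list, 4492 bp at chr17:48624025-48628516, overlapped HOXB9 and had a fold of 4.87 and a −log10 q of 1.88. It was followed by a peak of 3541 bp over HOXB7 and HOXB8 (fold 5.28) and one of 3012 bp within HOXB3 (fold 4.80). Peaks covered 2907 of the 5203 bp of HOXB9, 1428 of the 2947 bp of HOXB8, 676 of the 2844 bp of HOXB4 and 6188 of the 41372 bp of HOXB3. No base of HOXB1, HOXB2, HOXB5 or HOXB13 itself was covered. The highest fold of the list, 6.34 with a −log10 q of 3.95, was at chr17:48753801-48754314, beyond HOXB13. Another 6 peaks lay in SKAP1, a T-cell adaptor gene at the other end of the region.

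**Figure D3:**
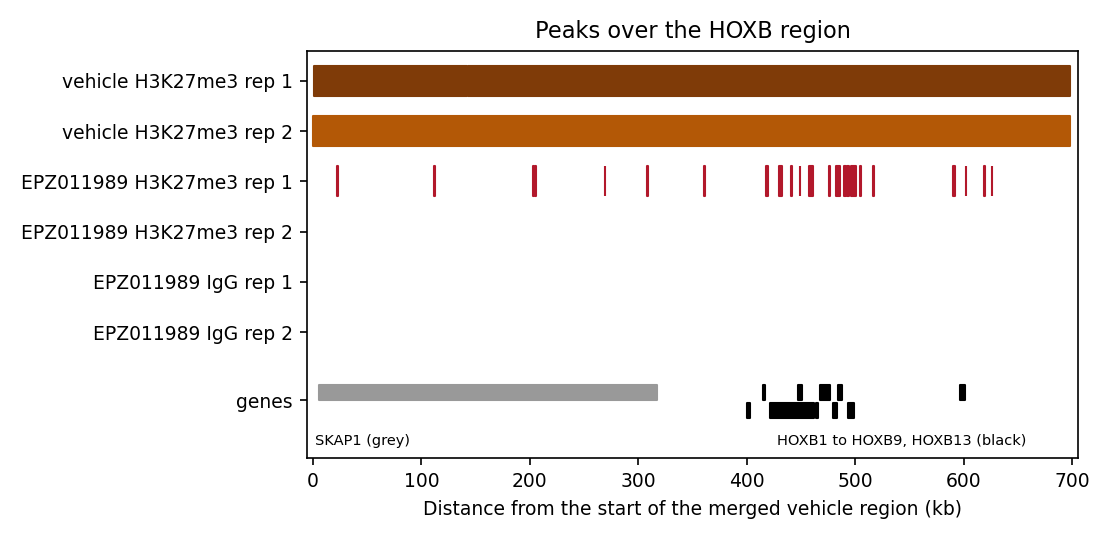
Peaks over the HOXB region as bars along the distance in kb from the start of the merged vehicle region, in both vehicle H3K27me3 libraries and the 4 EPZ011989 libraries, with gene bodies at the bottom (HOXB genes black, SKAP1 grey). The vehicle rows are nearly solid, replicate 1 has 23 narrow bars that crowd over HOXB3 to HOXB9, and the other 3 rows are empty.

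Outside this region peaks of replicate 1 rarely came close together. Taking peaks less than 50000 bp apart as a run, 26 peaks of replicate 1 formed 7 runs, of which 4 were in the HOXB region and 3, of 2 peaks each, lay near LHX8, at NRXN2 and at JAM2. The other 3 libraries had no run.

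Few gene starts carried a peak. A gene was counted where a peak overlapped the window of 2500 bp to each side of any of its listed starts, or of both ends for genes with no listed strand. Some genes were thus counted at an inner start, as CYTH1 was in replicate 2. Genes with no listed strand could also be counted at their far end. Windows at both ends or at several starts span more bases, so covered bases below do not rank genes with unlike windows. Of 19974 protein-coding genes, 37 (0.185%) had one in H3K27me3 replicate 1, 4 (0.0200%) in replicate 2, 1 (0.00501%) in IgG replicate 1 and 1 (0.00501%) in IgG replicate 2. Genes with a peak in both H3K27me3 libraries and neither IgG library numbered 0 (0%). With so few, the lists below describe single libraries.

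In replicate 1, 8 of the 10 HOXB genes had a window peak: HOXB2, HOXB3, HOXB4, HOXB6, HOXB7, HOXB8, HOXB9 and HOXB13. They share a single vehicle domain, and neighbours can share a peak, so they are not separate cases. Among the HOXB genes with a peak, all given windows at both ends, the covered bases were highest at HOXB9 (5900 bp), HOXB8 (4245 bp) and HOXB7 (3285 bp). The other HOX clusters had none, 0 of 11 in HOXA, 0 of 9 in HOXC and 0 of 9 in HOXD, although vehicle H3K27me3 marked 5 and 5, 9 and 9, and 6 and 7 of them. This and the lists that follow were chosen with earlier results of these data known.

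Among other Polycomb-type targets, CCND2, which encodes a D-type cyclin that drives entry into the cell cycle, had 2669 bp, as 1 of 3 D cyclins. NOG, a secreted inhibitor of BMP ligands, had 1489 bp, as 1 of 8 BMP antagonists. COL1A1, a chain of type I collagen, had 2132 bp and was 1 of 7 fibroblast genes. Of the signalling ligands, WNT1 had 626 bp and RSPO1, a secreted enhancer of Wnt signalling, 1063 bp. The synaptic adhesion gene LRRC4B had 1067 bp. In vehicle cells each of these 6 genes was covered in both H3K27me3 libraries, and none had a peak in treated H3K27me3 replicate 2 or in IgG. NOG, COL1A1 and WNT1 also had H3K4me3 peaks in both treated libraries, over 5408 and 4986 bp, 2100 and 2777 bp, and 1319 and 1328 bp of their windows.

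Several other genes of replicate 1 lay in vehicle H3K27me3 in both libraries. They were SH2D3A, an adaptor protein gene (1643 bp), B3GALT1, a glycosyltransferase (1293 bp), MUC12, a mucin (622 bp), GOLM1, a Golgi membrane protein (554 bp), and PRAC2, which neighbours HOXB13 (1750 bp). WDR11 (600 bp) had vehicle H3K27me3 in replicate 1 alone.

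The strongest peaks of replicate 1 were mostly away from starts. Of the 10 with the highest fold, only the one at HOXB4 (5.77) touched a gene window. The others lay beyond HOXB13 (6.34), nearest to KIF2B (6.07), RNF19B (5.80) and AASDHPPT (5.78), and within the genes RAP1A (5.71), PDE7B (5.59), RASSF9 (5.54), ST7L (5.48) and RARB, a retinoic acid receptor (5.46). Of the 10 widest, 6 were in the HOXB region or at COL1A1 and 1 was at CCND2 (2729 bp). The remaining 3 were in AGBL4 (2992 bp) and nearest to SEL1L (2042 bp) and SLC38A4 (1843 bp), with folds of 4.43, 4.50 and 4.37.

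Lists with no gene at a replicate 1 peak were the 12 PRC2 genes, 12 PRC1 and CBX genes, 16 housekeeping genes, 13 Merkel or neuroendocrine genes and 6 lymphoid or myeloid genes. With 0.185% of all genes at a replicate 1 peak, a count of 0 in lists of this size is near the background and is not a result about them, and the same holds for the HOXA, HOXC and HOXD counts. Replicate 2 had 1 of the 12 PRC2 genes, PHF1, and none of the other lists. The IgG libraries had none of any list.

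Of the 37 replicate 1 genes, 7 had no H3K27me3 peak in either vehicle library. A peak covered 916 bp of the window of FA2H, a fatty acid hydroxylase, and lay 59 bp from its annotated start. Another covered 897 bp in the windows of the neighbours SNRNP40, a spliceosome component, and ZCCHC17, and lay 106 bp from the ZCCHC17 start. These 3 of the 7 had H3K4me3, the mark of active starts, in both treated libraries. The other 4 had no H3K4me3 peak in either treated library. SHKBP1 (1307 bp) and SIN3A, the scaffold of a corepressor complex (766 bp), had vehicle H3K27me3 in replicate 2 alone. In all, 26 of the 37 genes (70.3%) were covered in both vehicle H3K27me3 libraries, as 35.7% of all genes were, and 18 (48.6%) had H3K4me3 in both treated libraries, as 67.1% of all genes did. Both shares include the 8 HOXB genes.

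In replicate 2 the genes were CYTH1, an exchange factor for ARF GTPases (413 bp), CASKIN2 and TSEN54, the latter a subunit of the tRNA splicing endonuclease (365 bp each, the same peak), and PHF1 (262 bp). Its other peaks lay in or nearest to genes such as GLI2, a Hedgehog transcription factor, and ERBB4, a receptor tyrosine kinase, and 14 of its 22 peaks had the list's lowest fold of 4.36. Those above it, apart from the shared sites, were nearest to DHX40 (5.22), METRNL (4.85), TSEN54 (4.79), CYTH1 (4.62) and FOXO3 (4.51). The single IgG genes were OSCP1 (288 bp) in replicate 1 and TMEM54 (322 bp) in replicate 2. Away from starts, IgG replicate 1 peaks included those in TAF3, SYT16, ADAM20 and GARIN5B and nearest to CXCL12, SOX9, PABPC4L, RETREG1 and a LOC gene, with folds of 4.92 to 6.55, and further IgG replicate 2 peaks lay in OPCML and NKAIN2 and nearest to BSND, all at 4.67.

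Promoter sequences, spanning 250 bases before to 50 after the start, came from a RefSeq table (GRCh38.p14) that holds 34943 distinct promoters and lacks 4161 of the protein-coding genes. CCND2, COL1A1, NOG, HOXB7 and HOXB9, each with an end inside a replicate 1 peak, and OSCP1, with an end inside an IgG peak, are among those it lacks, so promoters in peaks were not counted. The 4 below, from genes it holds, are examples, with CG dinucleotides in capitals, because CpG-rich starts are typical Polycomb sites. They are the promoter at the end of the widest HOXB peak (HOXB-AS4, a non-coding RNA, chr17:48628448-48628747, plus strand), that of COL6A2, a collagen VI chain with H3K27me3 in vehicle cells and H3K4me3 in treated cells (chr21:46097862-46098161, plus strand), that of SHKBP1 with H3K4me3 over all of it (chr19:40576623-40576922, plus strand), and, from replicate 2, that of CYTH1 (chr17:78736853-78737152, minus strand).
HOXB-AS4: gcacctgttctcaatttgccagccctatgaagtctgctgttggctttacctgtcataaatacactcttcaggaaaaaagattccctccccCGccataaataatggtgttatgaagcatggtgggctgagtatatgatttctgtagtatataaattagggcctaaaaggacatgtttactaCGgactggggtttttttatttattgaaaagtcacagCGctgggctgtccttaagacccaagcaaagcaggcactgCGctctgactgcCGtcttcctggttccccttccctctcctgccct
COL6A2: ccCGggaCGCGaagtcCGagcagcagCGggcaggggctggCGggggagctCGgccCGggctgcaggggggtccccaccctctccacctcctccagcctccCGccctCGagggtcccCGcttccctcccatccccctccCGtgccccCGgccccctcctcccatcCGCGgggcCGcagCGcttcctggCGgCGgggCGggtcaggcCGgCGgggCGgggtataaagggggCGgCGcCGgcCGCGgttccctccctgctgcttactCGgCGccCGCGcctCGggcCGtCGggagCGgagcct
SHKBP1: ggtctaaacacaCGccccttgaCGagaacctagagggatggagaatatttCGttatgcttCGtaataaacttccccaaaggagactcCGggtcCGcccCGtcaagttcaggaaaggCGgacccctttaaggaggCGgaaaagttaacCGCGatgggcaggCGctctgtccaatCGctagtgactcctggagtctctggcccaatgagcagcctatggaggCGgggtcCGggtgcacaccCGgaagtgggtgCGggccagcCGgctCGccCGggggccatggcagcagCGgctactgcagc
CYTH1: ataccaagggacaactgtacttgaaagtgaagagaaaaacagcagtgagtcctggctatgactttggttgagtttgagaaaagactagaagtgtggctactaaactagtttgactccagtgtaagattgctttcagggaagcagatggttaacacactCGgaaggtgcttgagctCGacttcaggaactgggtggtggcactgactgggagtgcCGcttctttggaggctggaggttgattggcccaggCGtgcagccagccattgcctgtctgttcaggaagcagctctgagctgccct
The number of CG dinucleotides was 5, 36, 21 and 4 in this order, where the median promoter of the table has 14 and the middle of the distribution runs from 4 to 28. The peaks overlapped 69, 170, 300 and 300 bases of them.

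The shares of peaks by position had wide and overlapping intervals in the 4 libraries. Peaks at gene windows made up 10.2% of H3K27me3 replicate 1 (exact 95% interval 7.28 to 13.8%), 13.6% of replicate 2 (2.91 to 34.9%), 8.33% of IgG replicate 1 (0.211 to 38.5%) and 11.1% of IgG replicate 2 (0.281 to 48.3%), where windows take up 4.17% of the genome span. The means differed by 2.19 percentage points (exact permutation p = 0.667), and the direction turned with windows of 1000 or 5000 bp. Between genes lay 47.7% and 40.9% of H3K27me3 peaks and 58.3% and 44.4% of IgG peaks. The median distance to the nearest start was 69.1 and 54.6 kb for H3K27me3 and 41.3 and 94.4 kb for IgG, ranges that overlap.

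Treated H3K4me3 peaks, present in both libraries over 1.204% of the span, were overlapped by 16 of 363 (4.41%), 3 of 22 (13.6%), 1 of 12 (8.33%) and 1 of 9 (11.1%). The difference of means was −0.70 percentage points (exact permutation p = 1). Regions with H3K27me3 in both vehicle libraries, 4.39% of the span, held 66 of 363 (18.2%), 3 of 22 (13.6%), 1 of 12 (8.33%) and 2 of 9 (22.2%), with a difference of 0.63 points (exact permutation p = 1). These groups overlapped, and the direction of the last difference turned in several alternatives.

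**Figure D4:**
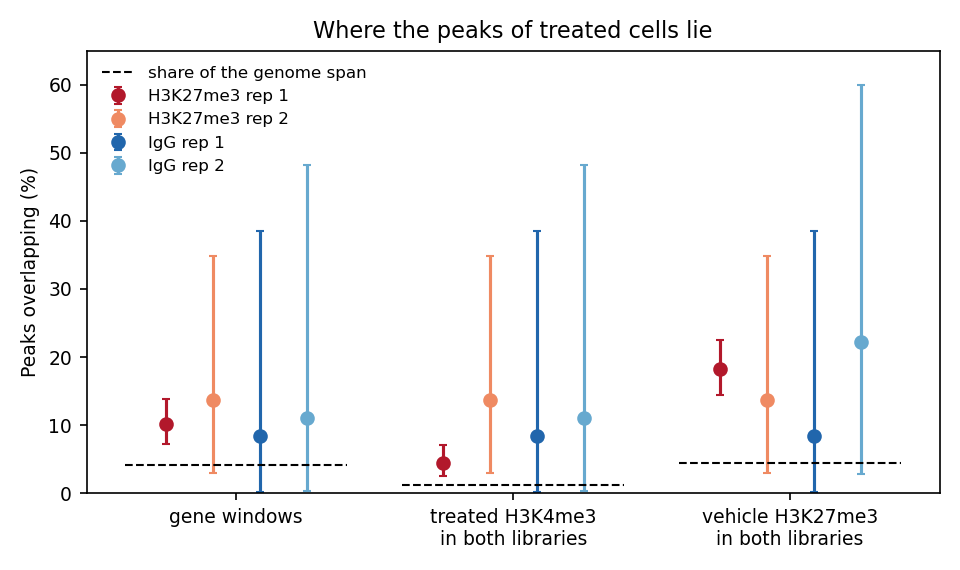
Share of each EPZ011989 library's peaks (percent) at gene windows, on H3K4me3 peaks of both treated libraries and on H3K27me3 peaks of both vehicle libraries, with exact 95% intervals as bars and the share of the genome span as dashed lines. The libraries' intervals overlap in each class, and those of the IgG libraries, with 12 and 9 peaks, are widest.

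Within replicate 1, peaks on vehicle regions were the wider ones, with HOXB included. The 66 peaks there had a median of 581.5 bp, against 435 bp for the 297 elsewhere, and 23 of the 66 but 18 of the 297 were 1000 bp or wider. Of the 66, 23 lay in the HOXB region, with a median of 1000 bp, and 12 of the wide ones were among them. The medians without HOXB were not calculated. The 66 peaks held 29.3% of the covered bases. Outside HOXB, 43 of 340 peaks (12.6%, 9.31 to 16.7%) lay on vehicle regions. The vehicle peaks concerned were long: 45 of 40782 in vehicle replicate 1, with a median width of 55.3 kb against 1.30 kb for all, and a longer peak has more bases in which to be met. Their median fold was 11.5 against 3.25, and 3 peaks of that list, the main HOXB peak among them, reached the HOXB fold of 28.4.

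Chromosome 17 was the densest in both H3K27me3 lists. It held 44 of the 363 peaks of replicate 1 (0.530 per Mb, against 0.120 per Mb overall) and 8 of the 22 of replicate 2 (0.0963 per Mb). Chromosome 21 came next in replicate 1 with 18 peaks (0.386 per Mb). Of the 44, 21 were outside HOXB, still 0.253 per Mb, and 16 of these lay off vehicle regions. IgG replicate 1 had 1 peak on chromosome 17 and IgG replicate 2 had 0. Replicate 1 had peaks on all 23 chromosomes, while replicate 2 had them on chromosomes 17, 6, 2 and 8 alone. Copy number of these chromosomes in MKL-1 was not analysed here, and its part in the densities was not tested.

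**Figure D5:**
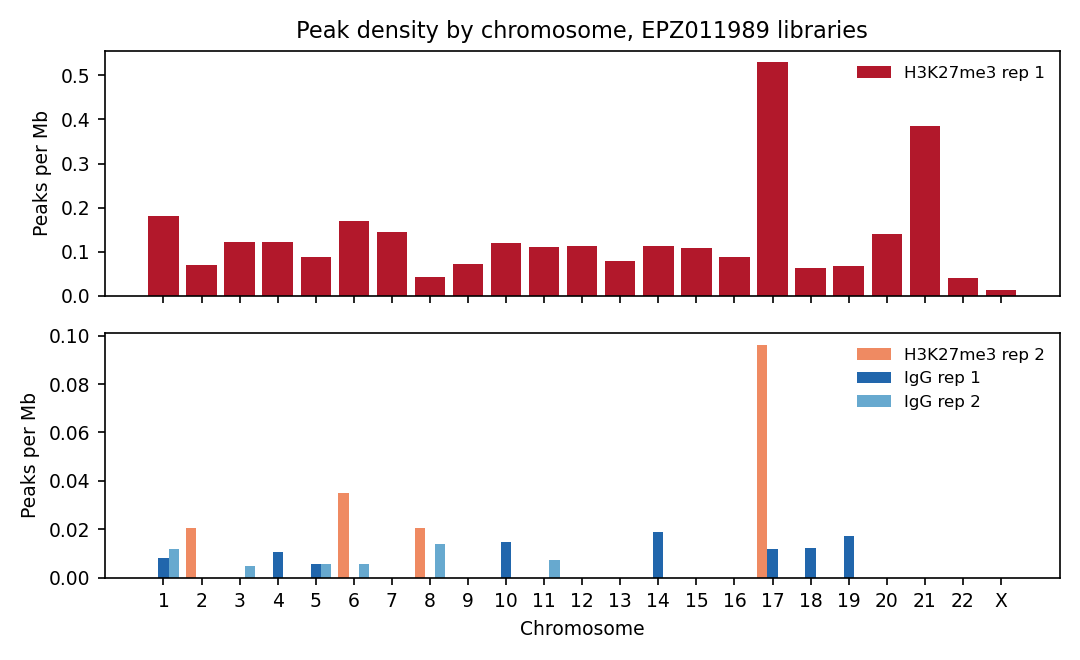
Peaks per Mb on each chromosome, H3K27me3 replicate 1 above and the other 3 EPZ011989 libraries below on a smaller scale. Chromosome 17 is highest for both H3K27me3 replicates, at 0.530 and 0.0963 per Mb.

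Mitochondrial DNA gave peaks in all 12 lists. In the treated libraries there were 1 and 3 peaks for H3K27me3, covering 16572 and 14127 bp, and 4 and 5 for IgG, covering 14175 and 13104 bp. These made up 7.01% and 66.2% of all listed bases for H3K27me3 and 78.9% and 81.8% for IgG. The mitochondrial cover differed little between the lists, so these shares mainly restate the nuclear covered length. Broad H3K27me3 peaks carry a mean and narrow IgG peaks a summit value, so mitochondrial folds are given side by side and not ranked between antibodies. The highest mitochondrial fold was 55.0 and 28.9 for H3K27me3 and 99.95 and 48.5 for IgG. It was 8.68 times the highest nuclear fold in H3K27me3 replicate 1 and 0.580 times in replicate 2, whose STEAP3 peak stands above it, and 12.2 and 2.74 times in IgG. The unlisted stretch from COX1 to COX2, genes of cytochrome c oxidase, ran from 6642 to 7970 in IgG replicate 1, from 6580 to 8025 in IgG replicate 2 and from 6657 to 7932 in H3K27me3 replicate 2. H3K27me3 replicate 1 listed the whole molecule as 1 peak. Broad and narrow calling also differ in how they join peaks.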

How the data were processed

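Peak lists of CUT&RUN libraries were analysed. The submitters' processing notes name FastQC, Bowtie2 2.2.9, SAMtools 0.1.19, MACS2 2.1.1.20160309 and hg38; thresholds, control library, duplicate handling and spike-in use are not given in the sources used here. The deposited lists give, per peak, the authors' own MACS2 fold, a ratio of pileup to local background with the same constant added to both. The authors also give −log10 p and −log10 q values, and a score deposited as a whole number made from the −log10 q. H3K27me3 lists are broad and IgG lists narrow. Read counts are unknown; intervals on shares cover counting error only.

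Peaks on chromosomes 1 to 22 and X were compared, with an overlap of 1 bp or more. Background and pileup were solved from fold and p under a Poisson model, on the assumption that it came from the same library; the solver and the interval code were tested on simulated data. Values of each library were compared by exact two-sided permutation over 6 labellings (2 against 2). Pairs follow the labels, which say that each culture was divided between antibodies; the match of numbers comes from the sample titles. Gene starts, alternative ones included, came from RefSeq tables of GRCh38.p14, with strand for 15813 of 19974 genes and both gene ends for 4161. Intervals are Clopper-Pearson. The tools were scipy 1.17.1, pandas 2.3.3 and numpy 2.4.6 under Python 3.11.15.

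Genes named are those with a window peak in H3K27me3 replicate 2 or IgG, the 25 with most covered bases in replicate 1, those nearest to or containing the 10 highest and 10 widest H3K27me3 peaks and all peaks of the 3 short lists, and fixed lists; LHX8, NRXN2, JAM2, SKAP1 and the promoters printed were chosen after their values were seen. Members and lists were chosen with earlier results of these data known.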

Additional observations from a re-analysis of the deposited data

Results flagged for a closer look

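The unplaced sequences, outside the chromosomes compared, held 2 peaks of treated H3K27me3 replicate 1, both on a sequence assigned to chromosome 17. They were 867 and 1393 bp wide, covered 2260 bp, and had a highest fold of 5.38 and a highest −log10 q of 2.50. They are listed because a signal appeared there and 0 peaks were listed in the treated IgG libraries, the vehicle IgG libraries and treated H3K27me3 replicate 2. Vehicle H3K27me3 had 2 peaks on the same sequence in each replicate, covering 80591 and 80115 bp. The H3K4me3 libraries had peaks there too, 2 and 5 in vehicle and 5 and 4 with EPZ011989, with folds up to 18.2, and 341 bp of the 867 bp peak lay on H3K4me3 of both treated libraries.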

How the results depend on the processing

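Of the alternatives, 52 values stayed on the same side, 6 moved and 14 turned direction. Some of the 52 could not differ. Joining peaks within 1000 bp changed no list, and pairing the libraries leaves the differences in percentage points the same by construction. No p could fall below 0.333. Log2 ratios of H3K27me3 to IgG: at a common −log10 q the number of peaks was −0.32 and covered length 0.21, and at a common −log10 p they were −0.58 and −0.11 (both thresholds chosen after seeing the data). Leaving out 1 replicate at a time, the number ran from 1.07 to 5.11, the length from 1.10 to 6.02 and the width from 0.049 to 0.53; the low ends came without H3K27me3 replicate 1. Percentage points: the share at gene windows, 2.19, was −1.73 with windows of 1000 bp, −9.91 with 5000 bp and −6.39 without edge-shared peaks. The share on vehicle H3K27me3, 0.63, was −19.2 with all sequences included, which adds mitochondrial peaks that lie on mitochondrial peaks of the vehicle lists. It was −1.64 when an overlap of 0.5 of the peak was required, −2.40 without edge-shared peaks and −2.14 without the HOXB region. Leaving out 1 replicate, it ran from −6.31 to 7.58. The share on treated H3K4me3 ran from −5.31 to 3.91 when 1 replicate was left out. Edge-shared peaks and the HOXB region were alternatives chosen after seeing the data. Genes at peaks fell from 37 to 5 in replicate 1 at a −log10 q of 2, and from 4 to 1 in replicate 2, or 2 with windows of 1000 bp. The cause was not tested. With the replicate block, the pairing gave a mean log2 ratio of 3.10 for number, 3.57 for length and 0.29 for width. The differences were 2.19, −0.70 and 0.63 points, equal by construction to those without the block. The exact sign-flip p was 0.5, 0.5, 1, 0.5, 1 and 1 in this order. As 0.5 is the smallest possible, the pairing could not decide any of these results.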
